A study of Mus musculus with 24 samples.

Results

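Mouse retinal organoids (MROs) are small balls of retinal tissue grown in a dish from pluripotent stem cells. At D20, the 20th day of differentiation, 6 individual MROs grown from wildtype E14Tg2a embryonic stem cells were each lysed whole and made into 1 RNA library, and these 6 of the 24 libraries of the series are described here. They were chosen by their day label alone, carry the genotype label Control, and served as controls to which, by their label, solvent water alone was added. Per the study's methods, organoids of this protocol are also given the synthetic retinoid EC23 from D10 to D14. The other 18 libraries, 6 each at D22, D25 and D30, were made in the same way and serve for comparison only. All came from 1 independent experiment, so the spread below is that between sister organoids and holds no spread between experiments. The organoids were made by cutting young aggregates into pieces, and which of them came from the same aggregate is not given in the sources used here.

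Since every organoid was sequenced on its own, each gene has 6 values that should differ only by counting noise if the organoids were copies of each other. The question addressed was which annotated genes differed by more than that, and which of these went up and down in the same organoids. The retina forms from the eye field of the anterior neural plate, next to the future telencephalon and hypothalamus, and in retinal cultures neural tissue of these neighbouring regions can form beside the retina. Retinal progenitors give rise to ganglion, horizontal, amacrine and cone cells early and to rods, bipolar cells and Müller glia later.

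The D20 libraries were of like depth, with 13634846 to 15793703 counted reads each. Any pair of libraries differed by far more than sampling noise (chi-square divided by its degrees of freedom 10.6 to 24.2 over 15 pairs), so no library was a copy of another. All organoids held photoreceptor transcripts, since the rod and cone regulator Crx lay between 581 and 678 CPM. CPM are counts scaled to a common library size, here after correction by the trimmed mean of M values (TMM). The progenitor and amacrine regulator Pax6 lay between 473 and 649 CPM, which is given as a level only. Of the 46603 annotated genes, the 12235 with a mean of 50 or more raw counts over the 6 organoids were examined. The spread of a gene is given as its biological coefficient of variation (BCV). This is the standard deviation between organoids as a share of the mean after the counting variance has been taken off. Despite its name, the BCV includes any spread from RNA isolation and library preparation. Its standard error (SE) comes from leaving out each organoid in turn.

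Most genes varied a little and few varied much. Of the 12235 genes, 10914 (89.2%) varied beyond counting noise at an adjusted p of 0.01 in a chi-square test with Benjamini-Hochberg adjustment. The median BCV was 13.9% ± 1.32 (SE, n = 6), with 4.67% at the 5th and 37.5% at the 95th percentile, while counting noise alone gives a coefficient of variation of 14.1% for a gene with 50 counts. A BCV above 0.5 was reached by 218 genes and one above 1 by 24 genes, and 136 genes showed none. The 200 genes of highest BCV are described below. The last of them, the rod gene Pde6g, had a BCV of 0.5178, and the first gene outside had the same value to 4 digits.

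**Figure D1:**
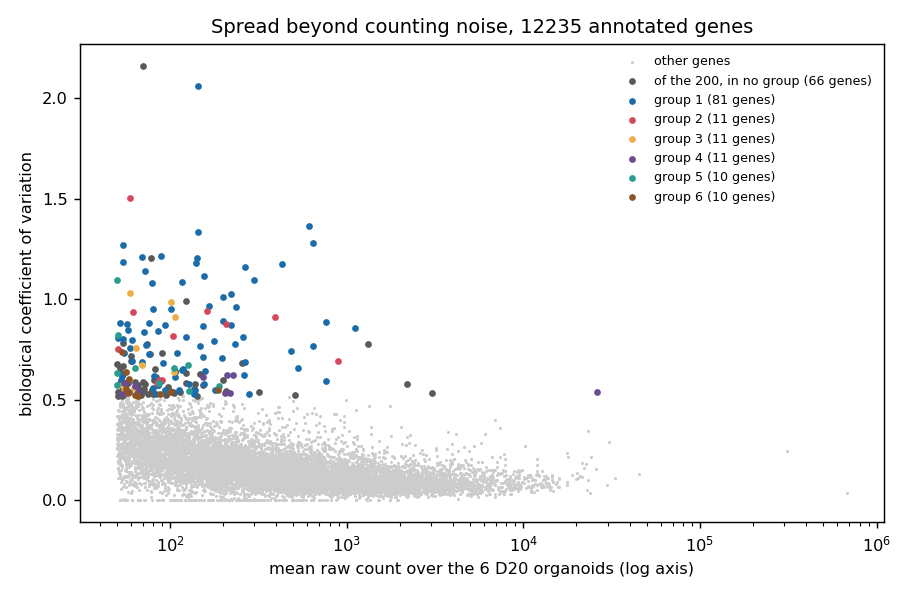
Biological coefficient of variation of each of the 12235 annotated genes (vertical axis) against its mean raw count over the 6 D20 organoids (horizontal log axis), with the 200 genes of highest spread in colour by the group they belong to. The spread falls with the count, and most genes above 1 belong to group 1 (blue).

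The 200 genes were mostly of low count. Of them, 163 were protein coding and their median count was 86.1 against 384.5 for all genes. They were longer too, with a median span in the genome of 44.3 kb against 23.7 kb. Organoid 4 was highest for 77 and organoid 6 for 60 of the 200 genes, while the other organoids were highest for 13 to 21 each. Over all 12235 genes these organoids were highest for 14.1% and 17.3%. The lowest values lay in organoids 1, 2 and 5 (55, 55 and 54 genes), where 23.7%, 12.8% and 24.7% of all genes were lowest, so that the counts of organoids 1 and 5 lay near that background. In 50 of the 200 genes 1 organoid stood apart above all others by Dixon's limit, which held for 4.81% of all genes. Only 34 of the 200 reached a mean of 200 counts. Among the 8480 genes that did, 18 of the 30 of highest spread belonged to the largest group described next.

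Hierarchical clustering by Pearson correlation over the 6 organoids put 134 of the 200 genes into 6 groups of 10 or more and left 66 in none. The genes were picked and grouped on the same 6 values, so the correlations within groups at D20 describe how the groups were made. When the choice and the grouping were repeated without organoid 6, 23.3% of the pairs of genes that shared a group still did so, and 40.1% without organoid 4, 45.6% without organoid 1, 54.7% without organoid 2 and 77.2% or more without organoid 3 or 5. Their behaviour at D22, D25 and D30, in organoids the grouping did not use, is a separate observation.

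**Figure D2:**
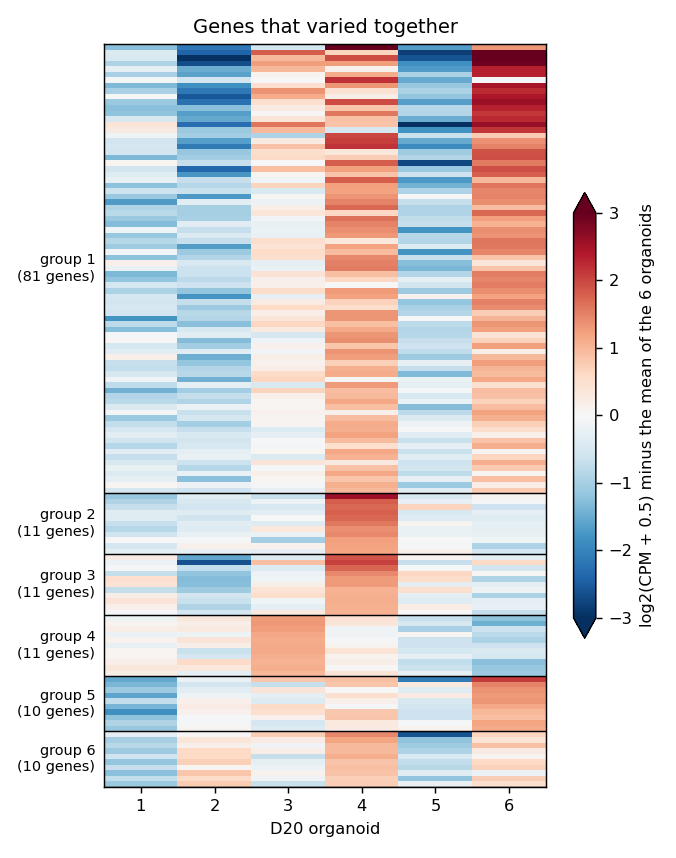
Level of the 134 grouped genes (rows, ordered by group and by spread) in each D20 organoid (columns), as log2(CPM + 0.5) minus the gene's mean over the 6 organoids. Red is above and blue below the mean. Group 1 is red in organoids 4 and 6, groups 2 and 3 in organoid 4, group 4 in organoid 3 and group 5 in organoid 6.

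Group 1, with 81 genes of which 75 were protein coding, was high in organoids 6 and 4. Organoid 6 was the highest for 44 of its genes and organoid 4 for 37. Both lay above all other organoids in 67 of the 81 genes, an order that 7.35% of all genes had. The summed level of the 81 genes was 462 CPM in organoid 1, 352 in organoid 2, 914 in organoid 3, 1770 in organoid 4, 375 in organoid 5 and 2105 in organoid 6. Organoid 6 thus held 5.99 times the level of organoid 2, organoid 3 lay between, and organoids 1, 2 and 5 were low. Since whole organoids were lysed, fewer cells of a type and less RNA per cell cannot be told apart.

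The transcription factors of group 1 included several that pattern the telencephalon. Neurod6 (ENSMUSG00000037984, GRCm38 chromosome 6, 55677822 to 55681263), a basic helix-loop-helix factor of cortical excitatory neurons that some amacrine cells also use, had the highest BCV of the protein coding genes in the group (1.36 ± 0.37, SE). It was at 11.5, 2.58, 56.5, 25.1, 1.79 and 145 CPM in organoids 1 to 6. Organoids 6, 3 and 4 lay above all others, and the highest was 80.9 times the lowest.

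Its relative Neurod2 was at 5.28, 0.475, 11.8, 5.90, 2.01 and 30.4 CPM, again with organoids 6, 3 and 4 on top. The neural POU factor gene Pou3f3 was at 6.05, 2.51, 19.6, 54.4, 4.01 and 84.0 CPM, with organoids 6, 4 and 3 highest. In 67 of the 81 genes of group 1, organoids 3, 4 and 6 lay above organoids 1, 2 and 5. Of all genes, 5.96% had that order, and group 1 was formed on these same values. Mef2c, a factor of maturing neurons, reached 57.2 CPM in organoid 6 against 4.36 to 20.2 elsewhere (BCV 1.16, and 0.718 without that organoid).

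The promoters of both Neurod genes are printed because Neurod6 was the coding gene of highest BCV in the largest group, Neurod2 is its relative, and both factors bind E-boxes, here searched as the letters CAGATG or, on the other strand, CATCTG. The sequences (RefSeq, GRCm38.p6) run from 250 bases before to 50 after the gene start, 5′ to 3′ on the minus strand for both genes (chr6:55681214-55681513 and chr11:98329596-98329895). Capitals mark the match.
Neurod6: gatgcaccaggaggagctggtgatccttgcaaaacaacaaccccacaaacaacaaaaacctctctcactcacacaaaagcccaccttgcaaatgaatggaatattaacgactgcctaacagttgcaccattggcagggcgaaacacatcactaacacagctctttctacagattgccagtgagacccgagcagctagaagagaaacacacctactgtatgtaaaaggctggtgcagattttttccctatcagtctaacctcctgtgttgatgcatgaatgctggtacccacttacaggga
Neurod2: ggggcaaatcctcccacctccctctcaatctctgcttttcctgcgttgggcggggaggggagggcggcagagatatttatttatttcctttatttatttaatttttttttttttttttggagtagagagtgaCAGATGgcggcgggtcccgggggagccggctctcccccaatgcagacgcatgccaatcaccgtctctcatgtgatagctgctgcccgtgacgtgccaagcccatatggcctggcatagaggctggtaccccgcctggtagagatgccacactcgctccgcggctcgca
Neurod2 held 1 match and Neurod6 held none in this window. Over group 1, 13 of the 55 genes with a promoter in the table held the letters (23.6%), against 19.2% of all 27025 genes and 17.2% of all 32851 promoters. The homeobox core TAATTA, which reads the same on both strands, occurred in 6 of the 55 (10.9%) against 6.12% of all genes.

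Beside these factors, group 1 held genes known from young neurons and neural progenitors. Dcx, the microtubule protein of migrating neurons, was at 25.5, 28.3, 52.8, 177, 32.5 and 132 CPM, and the adhesion molecule Chl1 at 9.78, 2.58, 45.7, 46.3, 4.94 and 146 CPM. The extracellular matrix proteoglycan Ncan was at 16.8, 13.9, 48.0, 79.3, 14.9 and 85.4 CPM. In each, organoids 3, 4 and 6 were the highest, but Dcx led in organoid 4 and Chl1 in organoid 6. Ptprz1, a receptor phosphatase of radial glia, was also highest in organoid 4 (134 CPM), followed by organoid 6 (74.2 CPM) and by 11.1 to 34.3 CPM elsewhere. The genes that followed the group mean most closely were the axon guidance cue Sema6d, Pou3f3, Ncan, Reps2 and Ube2ql1, with Pearson r of 0.99 each over the 6 organoids.

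The gene of highest spread in the group was Dlx6os1 (BCV 2.06 ± 0.41), a long noncoding RNA that runs antisense to the forebrain homeobox genes Dlx6 and Dlx5. It was at 49.9 CPM in organoid 4 and 5.81 CPM in organoid 6, and at 0.0678 to 1.18 CPM in the others, where the lowest was 1 raw count. Without organoid 4 its BCV was 1.5. Whether the counting used the strand is not given in the sources used here, so reads of this locus cannot be assigned to 1 strand with certainty.

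Group 2 consisted of 11 protein coding genes, all highest in organoid 4. Dlx1, a homeobox factor of ventral forebrain and of the retina, was at 16.5, 16.5, 16.8, 75.7, 15.6 and 17.7 CPM. Gad1, the enzyme that makes GABA, was at 4.43, 6.10, 7.76, 32.0, 7.31 and 8.45 CPM. The neuregulin receptor gene Erbb4 was at 3.45, 4.68, 4.44, 18.8, 6.30 and 4.77 CPM. In all 3 genes organoid 4 stood 2.98 to 4.28 times above the next organoid, and the other 5 overlapped closely.

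The remaining members were Snhg11, Vstm2a, Tmem130, Zcchc12, Caly, Adarb2, Kcnip1 and the hypoxia factor gene Epas1. Without organoid 4, the BCV was 0 for Dlx1 (0.910 with it), 0.209 for Gad1 (0.940), 0.179 for Erbb4 (0.815), 0.107 for Snhg11 (0.691) and 0.356 for Zcchc12 (1.5). Likewise the median correlation within the group went from 0.88 to 0.17, so the group is 1 organoid's difference from the other 5.

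Group 3, with 11 protein coding genes, was also highest in organoid 4 in all members but differed from group 2 in organoid 2, which was lowest for 9 of them. Gfap, the intermediate filament of astrocytes and reactive Müller glia, was at 3.8, 0.271, 8.45, 19.4, 2.51 and 6.65 CPM (BCV 0.988 ± 0.33, and 0.741 without organoid 4). The extracellular matrix protein Tnr was at 3.59, 0.678, 2.08, 12.4, 3.22 and 2.39 CPM (BCV 1.03, and 0.444 without organoid 4), and the kinase Prkcb at 8.37, 2.24, 7.0, 15.7, 4.94 and 4.90 CPM. Organoid 4 was the highest and organoid 2 the lowest in these 3 genes. Rgcc, Col12a1, Zim1, Spats2l, Npas3, Insyn1, Ntng1 and the GABA transporter gene Slc6a11 made up the rest. Without organoid 4 the median correlation in the group was 0.59 instead of 0.81.

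Group 4 was different in kind. Its 11 members were all small noncoding RNA genes, 8 of them annotated as small nuclear RNAs, with the snoRNA genes Snord66 and Gm23245 and the Cajal body RNA gene Scarna8, and all were highest in organoid 3. Small nuclear RNAs of this type form the core of the spliceosome, and the mouse genome carries many near-copies of them. In their GENCODE transcripts the 8 members share a run of 19 bases, and they agreed in 61.7% to 93.5% of aligned positions over 28 pairs (median 88.0%). The same run occurs in 281 of 1383 annotated small nuclear RNA genes.

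Gm24708 (chr7:16624575-16624677 on GRCm38, minus strand) was at 14.1, 15.3, 33.3, 17.3, 9.46 and 4.52 CPM, and Gm25142 at 11, 15.6, 30.4, 16.8, 7.59 and 5.03 CPM. The snoRNA gene Gm23245 (chr5:129789539-129789673), which had the most counts of the 200 genes, was at 1680, 1017, 3549, 2134, 1120 and 1199 CPM. Organoid 3 was 1.66 to 1.92 times above the next organoid in these genes, and organoid 6 was lowest for 8 of the 11. The direction went beyond the group. Of the 39 small nuclear RNA genes with 50 or more counts, 31 were highest in organoid 3, as were 48 of 77 snoRNA genes. The 31 included 16 of the 17 that hold the shared run and 15 of the 22 that do not. These counts include the group's own members, which were grouped on this pattern, and the run was taken from its 8 small nuclear RNA genes. Over all genes, 11.9% were highest in organoid 3.

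Organoid 3 also had the most alignments to several places in the genome (86.6 per 100 uniquely aligned reads, against 66.6 to 80.8 in the other organoids). Reads that fit several near-copies are left out by the counting, so that counts of these genes rest on the bases in which they differ. The part of this measure in the result was not tested.

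Group 5, with 10 genes, was highest in organoid 6 in all members and lowest in organoid 1 in 9. The cadherin gene Cdh8 was at 5.84, 11.1, 7.97, 14.1, 11.2 and 26.6 CPM (BCV 0.571, and 0.306 without organoid 6), and the adaptor gene Dok5 at 3.17, 5.70, 9.70, 7.37, 5.59 and 19.4 CPM (BCV 0.674, and 0.370 without organoid 6). Organoid 6 was the highest and organoid 1 the lowest in both. Slco3a1, Pla2g7, Cplx4, Cdh10, Schip1, Gabrb1, Dync1i1 and the noncoding Gm29260 followed. Its mean profile was the most like that of group 1 of all groups (Pearson r = 0.77 over the 6 organoids, as a description).

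Group 6, also with 10 genes, was highest in organoid 4 in 8 members and lowest in organoids 5 and 1 in 5 and 4. Opn1sw, the short-wavelength cone opsin, was at 7.39, 17.4, 6.86, 24.7, 8.10 and 12.0 CPM, and the synaptic scaffold gene Homer2 at 1.34, 4.20, 3.81, 7.84, 1.07 and 4.39 CPM. Organoids 4 and 2 led in Opn1sw, and Homer2 was highest in organoid 4 and lowest in organoids 5 and 1. Tmem35a, 5730409E04Rik, Slitrk4, Nkain3, Mlf1, Csn3, Jakmip3 and 6330415B21Rik were the other members.

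**Figure D3:**
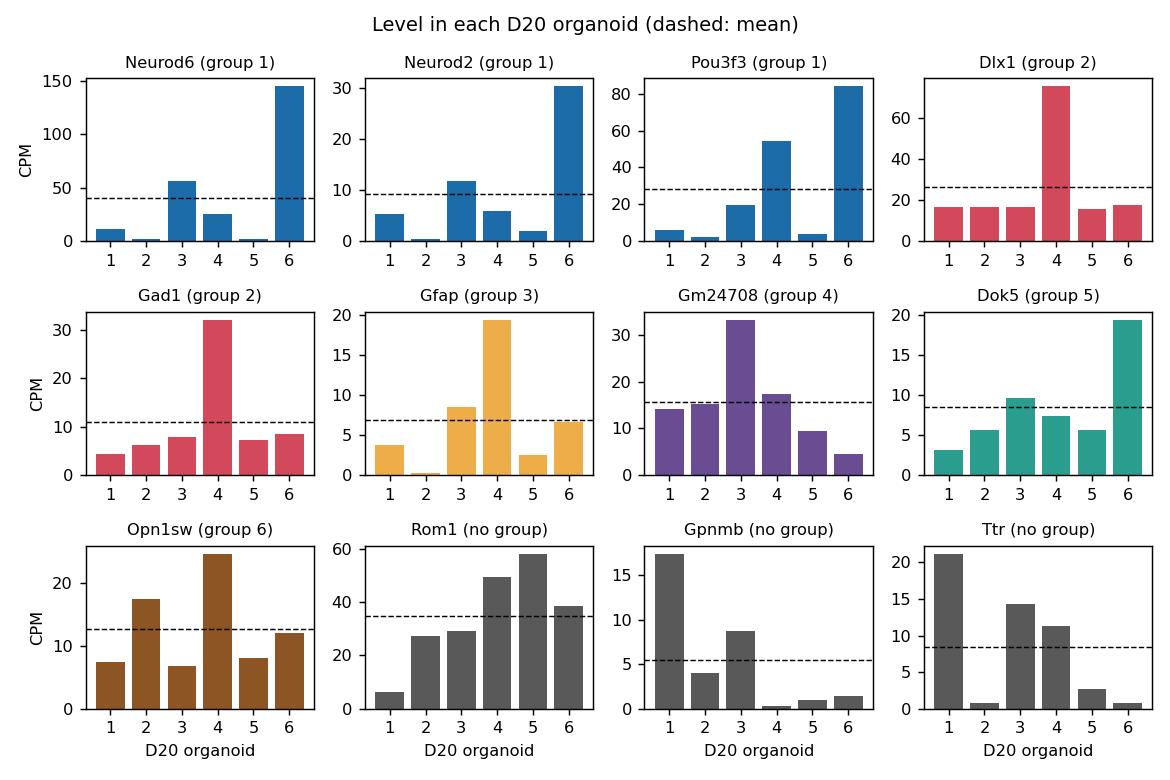
Level of 12 genes in CPM (vertical axes, each starting at 0) in each of the 6 D20 organoids, with the mean as a dashed line and the colour giving the group. Neurod6 and Neurod2 lead in organoid 6, Dlx1, Gad1 and Gfap in organoid 4, Gm24708 in organoid 3, and Gpnmb and Ttr in organoid 1, where Rom1 is lowest.

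The 66 genes in no group included photoreceptor genes that were lowest in organoid 1, namely Rom1, Cnga1, Impg1 and Pde6g. Rom1, a rim protein of photoreceptor discs, was at 6.33, 27.2, 29.1, 49.5, 58.2 and 38.5 CPM (BCV 0.524 ± 0.21, and 0.325 without organoid 1). The rod channel gene Cnga1 was at 0.493, 1.97, 2.36, 7.31, 5.30 and 4.71 CPM. Organoid 1 lay below all others in these 2 genes by 3.99 to 4.29 times, and organoids 4, 5 and 6 were the 3 highest.

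Other ungrouped genes were high in organoid 1. Gpnmb, a glycoprotein of pigment cells and phagocytes, was at 17.4, 4.0, 8.66, 0.268, 0.931 and 1.48 CPM. Ttr, the thyroxine carrier made by pigment epithelium and choroid plexus, was at 21.2, 0.746, 14.3, 11.3, 2.65 and 0.774 CPM, and the BMP antagonist Grem1 at 9.57, 2.78, 2.84, 2.55, 1.15 and 3.55 CPM. Organoid 1 was the highest in all 3, followed in Ttr by organoids 3 and 4, and the BCV of Grem1 was 0.302 without it (0.781 with it). The protein coding gene with the most counts among the 200 was Aldh1a1, a retinoic acid synthesis enzyme of the dorsal retina. It was at 221, 378, 152, 47.2, 188 and 254 CPM, with organoid 4 below the others by 3.23 times.

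Ribosomal protein genes and their pseudogenes also appeared. The processed pseudogene Rpl13a-ps1 had the highest BCV of all genes (2.16 ± 1.20), with 26.7 CPM in organoid 1 and 0.258 to 1.18 CPM in the others. Without organoid 1 its BCV was 0.578. Rpl23a was at 67.1, 230.0, 83.8, 70.0, 44.0 and 46.3 CPM, highest in organoid 2 (BCV 0.777, and 0.270 without it), and Rpl7a ranged from 68.1 to 265 CPM. Ribosomal protein genes have many processed copies in the genome, and reads that fit several places are left out of the counts, so these values are uncertain.

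Of the marker lists for neural neighbours of the retina, those of the telencephalon and ventral forebrain spread widely, and that of diencephalon, midbrain and hindbrain spread 1.90-fold (67.9 to 129 CPM, highest in organoid 1). The telencephalon and cortex list, of which 8 of 11 genes had 50 or more counts and 6 were among the 200 (1.63% of all genes were), summed to 93, 69.9, 160, 138, 63.9 and 308 CPM in organoids 1 to 6. Organoid 6 was 4.82 times above organoid 5, and 5 of the 8 counted members were highest there. Emx1, a marker of the dorsal telencephalon with too few counts to be ranked, was at 5.16 CPM in organoid 6 and at most 0.693 CPM elsewhere, and Eomes, a factor of intermediate progenitors, at 14.8 CPM against 2.36 to 6.24. By contrast Slc17a7, a glutamate transporter gene that photoreceptors also express, lay between 29.7 and 38.5 CPM.

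The ventral forebrain list summed to 19.8, 18.6, 18.5, 89.9, 16.8 and 20.1 CPM and rested on Dlx1, its only member with 50 counts. Organoid 4 lay 4.48 times above the next. Members of lower count pointed to the same organoid, with Dlx2 at 7.98 CPM there and 0.693 to 2.11 elsewhere, and Dlx6 at 2.55 CPM there and at most 0.422 elsewhere. The defining markers of the medial ganglionic eminence were at or near 0, with Nkx2-1 at most at 0.339 CPM and Lhx6 at most at 1.23 CPM in any organoid.

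The list of astrocytes and optic stalk summed to 8.23, 6.78, 13.0, 34.3, 8.45 and 9.55 CPM, also highest in organoid 4. Of its low members, Pax2, a factor of the optic stalk, was at 1.94 CPM in organoid 4 and at most 0.0645 CPM elsewhere. The astrocyte enzyme Aldh1l1 was at 5.43 CPM against at most 0.839 CPM, and Vax1 had 3 counts, all in organoid 4. S100b went the other way, with 0.323 CPM in organoid 6 and 0.067 CPM in organoid 4. Organoid 4 was also the lowest for 13 of 15 mitosis genes, where 14.4% of all genes were lowest. The mitosis list summed to 1190 CPM there and to 1568 to 2009 CPM in the others. Fgf15, a growth factor of retinal progenitors, was also lowest in organoid 4, with 25.7 CPM there and 62.4 to 132 CPM elsewhere. The part of cycling cells in the other differences of organoid 4 was not tested.

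Photoreceptor genes were mostly lowest in organoid 1. Of the 26 counted genes of photoreceptor precursors, mature rods and cones, 19 were lowest in organoid 1, against 23.7% of all genes. By list these were 11 of 13 precursor genes and 6 of 7 mature rod genes, but only 2 of 6 cone genes. Mature rod genes summed to 1714 CPM there and to 2459 to 3199 CPM in the others. Cone genes summed to 241 against 385 to 473 CPM, of which Gngt2 was the largest part (109 against 224 to 279 CPM). Ganglion cell genes were lowest there too (8 of 10, 397 against 549 to 679 CPM). In contrast, 10 of 14 hypoxia and glycolysis genes were highest in organoid 1, where 21.5% of all genes were highest. The step in their sum was small (7068 against 5278 to 6158 CPM). The sum of imprinted genes was also highest there (4448 against 3020 to 3344 CPM), and the noncoding RNA Meg3 gave the most to it. Of the 15 imprinted genes, however, 6 were highest in organoid 1 and 7 in organoid 4, where 14.1% of all genes were highest. The regulator Crx varied little, with a BCV of 0.0490.

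Among the lists that varied least were cholesterol synthesis (median BCV of 10 genes 8.53%), the hypoxia list (13.3%), horizontal cells (13.5%) and retinal progenitors (14.1% over 12 genes), all near or below the 13.9% of all genes. Lens, pluripotent and endoderm genes were near 0 in every organoid, with summed levels of at most 2.08, 1.52 and 0.416 CPM.

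**Figure D4:**
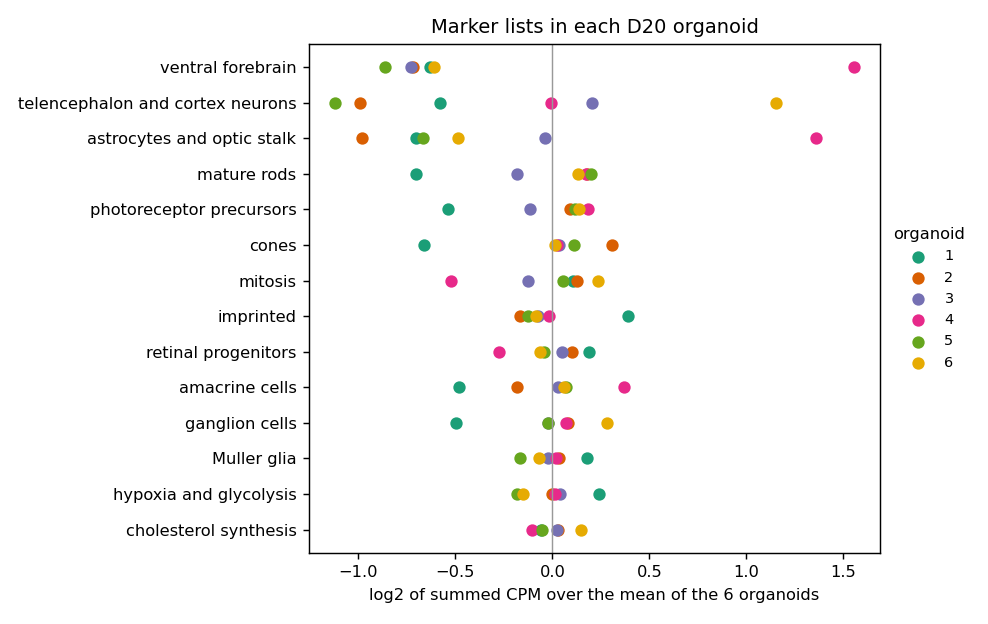
Summed CPM of 14 marker lists in each D20 organoid (colours), as log2 of the sum over the list's mean of the 6 organoids (horizontal axis). Organoid 4 (pink) stands apart in ventral forebrain and in astrocytes and optic stalk, organoid 6 (yellow) is the highest in telencephalon and cortex neurons, and organoid 1 (green) lies lowest in photoreceptor lists.

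Whether the main axis of spread followed a property of the libraries was examined with principal components of all 12235 genes. The first component carried 29.7% and the second 27.2% of the variance. On the first, organoid 1 scored 33.9 and organoid 6 -19.3, with the others between -11.9 and 1.46. Of 6 library measures, the share of reads on cytosolic ribosomal protein genes (2.43% to 3.21%) came nearest to following it, with Pearson r = 0.700 (exact permutation p = 0.101, adjusted 0.608) and Spearman rho = 0.943 (exact permutation p = 0.0167, adjusted 0.100, two-sided, n = 6). Without the 2 organoids farthest from the median share, Pearson r was 0.967. When the component was computed anew without organoid 1, Pearson r with that new component was -0.14. That value belongs to another axis, so it cannot tell how far the relation above depends on organoid 1. The other 5 measures (counted reads and the shares outside features, ambiguous, aligned to several places and on assembled loci) had adjusted p of 0.525 or more in exact permutation tests.

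The same genes also spread at later days. Over the 200 genes the median BCV was 63.2% at D20, where they were chosen. In the D22, D25 and D30 organoids it was 40.01%, 46.5% and 47.3%, against 15.3%, 12.7% and 16.7% for all genes. Of the 200, 59, 76 and 47 were among the 200 genes of highest BCV at D22, D25 and D30 too, which held for 1.63% of all genes.

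Whether genes went up and down together at later days differed between groups. For group 1 the median correlation between pairs of its genes was 0.84 at D20 and then 0.23, 0.85 and 0.91 over the later days, while for all genes it was 0.02, 0.02, 0.02 and 0.16. The summed level of its 81 genes spread 5.99-fold at D20, 1.80-fold at D22 (399 to 718 CPM), 7.73-fold at D25 (840 to 6497 CPM) and 10.7-fold at D30 (836 to 8948 CPM), each day scaled on its own. So the summed level was low in all D22 organoids, and at D25 and D30 it was many times higher in some than in others. Single genes of the group still spread at D22, with a median BCV of 39.9% against 15.3% for all genes. Group 5 did likewise (0.82, 0.16, 0.85 and 0.81). Group 4 was the only group above 0.6 at both D22 and D25 (0.69 and 0.70, and 0.44 at D30). In group 3 the genes did not go together at D22 (-0.23) and D25 (0.12) but did at D30 (0.64). Groups 2 and 6 were at 0.41 and 0.09 at D22, at 0.32 and 0.30 at D25 and at 0.77 and 0.30 at D30.

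**Figure D5:**
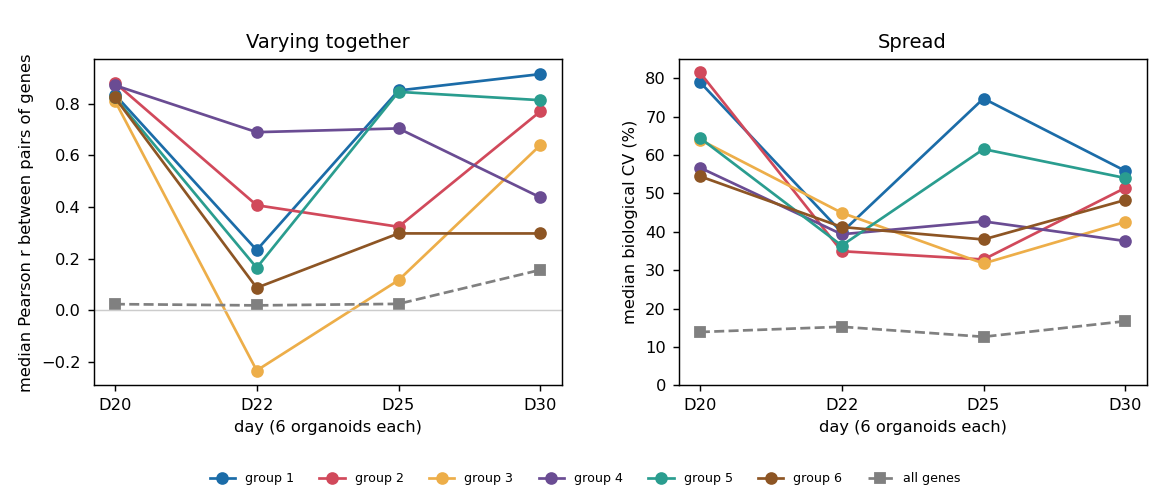
Median Pearson r between pairs of genes of each group over the 6 organoids of a day (left) and the groups' median biological coefficient of variation in percent (right), for D20, where the groups were made, and for D22, D25 and D30, whose organoids are different ones. Dashed grey squares are all 12235 genes. Group 1 (blue) drops at D22 and returns at D25 and D30.

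From D22 to D30, in the 18 later organoids, the genes that had varied at D20 mostly rose. Of the 12234 genes with 50 counts at D20 that were tested, 21.6% rose and 13.9% fell (edgeR quasi-likelihood test, adjusted p of 0.01 over all 47562 tested features, of which 11.3% rose and 10% fell). Of the 200 genes, 199 were tested, 125 rose and 19 fell, with a median log2 fold change of 1.99 against 0.09 for all genes. By group, 75 of 81 genes rose in group 1, 9 of 11 in group 2, 11 of 11 in group 3, 9 of 10 in group 5 and 7 of 10 in group 6, and 8 of 11 fell in group 4. In the ungrouped genes 14 rose and 10 fell of 65.

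Neurod6 rose by a log2 fold change of 4.78 ± 0.97 (SE, edgeR adjusted p = 0.000483), and its level at D30 still ranged from 0.729 to 166 CPM (median 112 CPM). The range at D22 was 0.125 to 7.67 CPM, below what organoids 3, 4 and 6 held at D20. Gfap rose by 6.39 ± 0.91 (edgeR adjusted p = 6.84e-06) to between 107 and 2055 CPM. Gad1 rose by 1.63 ± 0.38 (edgeR adjusted p = 0.00177), whereas Dlx1, with 2.59 ± 0.79 (edgeR adjusted p = 0.0136), did not pass.

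The rod genes Cnga1 and Rom1, low in organoid 1, rose as well and spread less between organoids at D25 and D30. Cnga1 rose by 4.04 ± 0.30 (edgeR adjusted p = 5.8e-10), and its BCV over the 4 days was 0.669, 0.628, 0.204 and 0.229 in order. For Rom1 the BCV was 0.524, 0.501, 0.0918 and 0.235 over these days. With each day scaled on its own, the lowest D22 organoid, at 61.1 CPM of Rom1, lay above the highest at D20, 58.2 CPM. The cone opsin gene Opn1sw fell by 2.92 on the log2 scale (SE 0.31, edgeR adjusted p = 1.11e-07). Gm24708 of the small nuclear RNAs fell by 1.64 on the log2 scale (SE 0.38, edgeR adjusted p = 0.00151).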

How the data were processed

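The members and gene lists were chosen with earlier results of these data known. The authors trimmed reads with cutadapt (version 1.5), aligned them with HISAT2 to GRCm38/mm10, assembled transcripts with StringTie (version 1.3.3) and counted reads per feature with HTSeq (version 0.6.1). The deposited values are raw counts on 126602 features, 46603 of them annotated genes. Libraries were strand-specific and depleted of ribosomal RNA. All 37 mitochondrial genes are listed at 0. Total counts per D20 organoid are given above, and 3 counts correspond to at most 0.215 CPM (counting error only).

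Day and replicate number came from the labels. Library sizes were scaled with TMM in edgeR (version 4.0.16, R version 4.3.3). BCV, the chi-square test of counting noise (5 degrees of freedom) and average linkage on 1 - Pearson r of log2(CPM + 0.5), cut at a height of 0.3, were computed in Python (version 3.11.15, numpy version 2.4.6, scipy version 1.17.1). D30 was tested against D22 with the quasi-likelihood test of edgeR over features with a base mean of 10 or more, in the 18 later organoids. DESeq2 (version 1.42.0) served for alternatives. Library relations used exact permutations of all 720 orders. Symbols and positions came from GENCODE on GRCm38, where 12200 of the 12235 identifiers matched. Named were the 30 genes of highest BCV, the 5 coding genes closest to each group mean, the extreme members of each marker list, and the first 3 markers of lists that differed over 3-fold. Other genes were named after their values were seen, and some genes and sequences are not reported here. Scripts were tested on simulated counts. Replicate numbers do not pair organoids across days, since every library is another organoid.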

Additional observations from a re-analysis of the deposited data

Results flagged for a closer look

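A gene or list is given here when 1 of the 6 D20 organoids stood apart from the rest, with a gap to its nearest neighbour that exceeds Dixon's 95% limit for 6 values. Chance flags about 1 in 20 groups when gaps above and below both count. Of all 12235 genes, 4.81% had an organoid standing apart above the others. That share leaves out organoids standing apart below, so it is not to be set against 1 in 20. The genes named here were chosen for their spread, which favours such values. Of the 133 genes named by rule, 18 stood apart, 11 of them in organoid 4, 6 in organoid 6 and 1 in organoid 1.

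In organoid 4 these were, in CPM of that organoid, the antisense RNA gene Dlx6os1 (49.9), Zcchc12 (16.3), Cacna2d3 (16.3), Lrp1b (16.5), Tnr (12.4), Snhg11 (146.7), Erbb4 (18.8), Dlx1 (75.7), Gad1 (32.0), Vstm2a (12.6) and Col12a1 (20.8). Genes known from inhibitory neurons (Dlx1, Gad1, Erbb4) stand beside extracellular matrix genes (Tnr, Col12a1) and an ion channel subunit gene (Cacna2d3). Gad1 is also on the list of amacrine cells, which summed to 639 CPM in organoid 4 and to 355 to 519 CPM elsewhere. Of the 11 counted amacrine genes, 6 were highest and 2 lowest in organoid 4, against 14.1% and 14.4% of all genes. Whether these transcripts came from forebrain or retinal cells was not tested. In organoid 6 they were Chl1 (145.9), Nr4a3 (12.4), Mef2c (57.2), Opcml (32.2), Nfix (31.8) and Cttnbp2 (43.9). In organoid 1 the pseudogene Rpl13a-ps1 was at 26.7 CPM.

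Of the marker lists, the sums stood apart for astrocytes and optic stalk (34.3 CPM) and ventral forebrain (89.9 CPM) in organoid 4, for imprinted genes in organoid 1 (4448 CPM), for interferon response in organoid 2 (31.1 CPM) and for lens in organoid 5 (2.08 CPM). The last 2 rest on few counted genes: 2 genes of the interferon list and none of the lens list had 50 or more counts.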

How the results depend on the processing

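DESeq2's size factors gave 10909 genes beyond counting noise, a median BCV of 13.9% and 4 groups with 99.0% of grouped pairs still together, and TMM over annotated genes only gave 10848 genes, 13.8% and 7 groups with 70.4% of pairs. A minimum of 200 counts gave a median BCV of 11.7% and kept 34 of the 200 genes and 3.72% of grouped pairs, and a minimum of 10 counts gave 16.9%, 30 genes and 4.21%, since other genes then became eligible. The tagwise dispersion of edgeR gave a median of 17.8%. With protein coding genes only, 55.1% of pairs stayed together. Spearman's rho gave 3 groups (64.7% of pairs), 100 genes 3 groups (36.2%), 400 genes 14 groups (64.2%) and a cut at 0.2 3 groups (46.4%). The cause was not tested beyond what each setting changes by construction.

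With each organoid left out in turn, 9955 to 10533 genes lay beyond noise, the median BCV was 12.6% to 14.5%, 130 to 169 of the 200 genes stayed, 4 to 8 groups formed, and 23.3% to 79.0% of pairs stayed together. The lowest counts came without organoid 4 (130 genes) and without organoid 6 (23.3% of pairs). Pairs were also lost without organoids 4 (40.1%), 1 (45.6%) and 2 (54.7%). The BCV of 71 of the 200 genes was more than 1.5 times lower without 1 organoid, 29 of them without organoid 4. The 81 genes of group 1, picked on all 6 organoids, had a median r of 0.82 to 0.87 with any 1 left out, which does not show that the group would form again. Pearson r of the first component, computed anew each time, ranged from -0.82 to 0.15 for counted reads, -0.66 to 0.59 for the share outside features, -0.32 to 0.12 for ambiguous reads, -0.40 to 0.26 for alignments to several places, -0.61 to 0.0061 for assembled loci and -0.14 to 0.87 for ribosomal protein genes. The sign thus changed for each measure, but each recomputed component is an axis of its own. These ranges do not tell how far the relations on the main axis depend on 1 organoid.

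For D30 against D22, annotated genes alone gave 3135 features up and 2910 down, since fewer features were tested. With the replicate number as a block (replicate block), 5184 features rose and 4435 fell, with 124 of the 200 genes up. Same-numbered organoids of D22 and D30 correlated between -0.05 and 0.12, and 1 of 6 matched its own number best, so the numbers do not pair organoids. Under all alternatives run, 122 to 132 of the 200 genes rose and 17 to 23 fell.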
